A study of Mus musculus with 12 samples.

Results

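Position 37 of a transfer RNA (tRNA) is the base just 3′ of the anticodon, and it was a purine in every tRNA that could be placed here. Members were found by reading the anticodon named in each tRNA entry: the base run that spells it, beginning between bases 32 and 38 of the entry and following a T or C, was taken as positions 34 to 36, and the A or G next to it as position 37. Of 404 deposited tRNA entries, 361 gave a purine at position 37. Entries with identical values were counted once, which left 183 members among 213 distinct entries, 113 with A and 70 with G, from 46 anticodons. No entry had C or T there. Of the other distinct entries, 25 had no match of their anticodon, 2 had several matches and 3 had no base recorded at position 37.

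The tRNA came from hematopoietic stem and progenitor cells (the cells that renew blood) of old and young mice, all labelled wildtype and with no exact age. All small RNA under 200 nt was demethylated with wild-type AlkB and the AlkB mutant D135S. It then went into BEU buffer, with CMC or without it, and was afterwards shaken in sodium carbonate buffer and reverse transcribed. CMC is a carbodiimide that stays on pseudouridine and stops reverse transcriptase, so the libraries without CMC are the background. There were 4 groups of 3 libraries: old with CMC, young with CMC, old with BEU alone and young with BEU alone, called Old-CMC, Young-CMC, Old-BEU and Young-BEU below. The labels do not say whether replicates came from separate or pooled animals, so the spread behind each p-value is that among libraries and may be technical. The tables hold tRNA only, so the cell type could not be checked against its marker genes.

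Purines at position 37 stack on the codon-anticodon pair and help to hold the reading frame, and most are modified in the cell. Adenosine 37 after U36 commonly carries threonylcarbamoyl (t6A), and in some serine tRNAs and the selenocysteine tRNA it carries isopentenyl (i6A), added by TRIT1. Alanine tRNAs carry 1-methylinosine (m1I), made by ADAT1 and a methyltransferase. TRMT5 makes 1-methylguanosine (m1G), which stays as such in leucine and proline tRNAs and is the first step towards the bulky wybutosine of phenylalanine tRNA. AlkB enzymes are known to remove methyl groups from bases such as m1A and m1G, and a modification that blocks base pairing can stop reverse transcriptase without CMC. Members were ordered by these known classes. All remaining anticodons were put together as A37 other and G37 other, which are not taken to be unmodified.

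The readout was the stop rate, the percent of the reads covering a base that are recorded as stopping at it. The sources used here do not give the rule that places a stop at a base. Summed over tRNAs, the highest coverage was between 218695 and 510898 reads in Old-CMC, 201980 and 767650 in Young-CMC, 533736 and 1061426 in Old-BEU, and 713459 and 1032104 in Young-BEU. Coverage never went past 8015, and stop rates near this ceiling could differ from those of the group's other libraries. At tRNA-Asn-GTT-1-1 the Old-BEU library with 7995 reads gave 0.775%, and the others 3.07 and 3.05%. At tRNA-Arg-ACG-1-1 the one with 7558 reads gave 1.97%, and the others 0.755 and 0.855%. A site was therefore counted as measured where coverage at it and 5′ of it stayed under 7500. With coverage of at least 20 in all 12 libraries, 136 members remained. Of these, 66 were below the ceiling throughout and 70 reached it in at least 1 library, while 47 members had fewer than 20 reads in some library. Among the 66, 39 members from 24 anticodons (27 A and 12 G) had a mean stop rate of at least 2% and were tested. Members are not independent of each other. At least 60 of the 183 members, and 17 of the 39 tested, had the same number of stop reads as another member in all 6 CMC libraries, often with another coverage. Only pairs with at least 5 stop reads in some CMC library were counted. Pairs with fewer stop reads, such as tRNA-Arg-TCG-3-1 and tRNA-Arg-TCG-4-1, come on top of these counts. The stop rates of such members rest on the same stop numbers over different coverage, and the sources used here do not say how reads were divided between entries.

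The anticodon arms below, positions 27 to 43 read 5′ to 3′ from the deposited bases in DNA letters, are those the results turn on, with position 37 in capitals.
tRNA-Phe-GAA-3-1: ttagactgaaGatctaa
tRNA-Leu-CAG-4-1: ctgcgttcagGtcgcag
tRNA-Pro-TGG-1-1: ctcggtttggGtccgag
tRNA-Ala-CGC-1-1: catgcttcgcAtgtatg
tRNA-Ala-TGC-4-1: catgctttgcAtgtatg
tRNA-Ser-AGA-1-1: atggactagaAatccat
tRNA-Ser-CGA-1-1: ttggactcgaAatccaa
tRNA-SeC-TCA-1-1: gcaggcttcaAacctgt
tRNA-Thr-CGT-4-1: cctgtctcgtAaacagg
tRNA-Met-CAT-2-1: tcagtctcatAatctga
In the Leu-CAG, Pro-TGG and Ala arms the base after the capital is T, a candidate pseudouridine, while the Phe, Ser and Met arms have A there and T at position 39. The 2 Ala arms shown differ within the anticodon alone.

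Stop rates at position 37 were low in most tRNAs, with the highest medians in the wybutosine and i6A classes, though members of one class or anticodon could differ widely. Phenylalanine tRNA stopped most reads, serine and selenocysteine tRNAs of the i6A class near 8%, and most t6A, m1G and unclassified members at a few percent. Among members below the ceiling with at least 20 reads in a group's libraries, the i6A class had median stop rates of 8.80% in Old-CMC (7 members), 8.19% in Young-CMC (7), 7.68% in Old-BEU (8) and 8.31% in Young-BEU (9). The t6A class had medians of 3.49% (37 members), 3.91% (36), 2.02% (33) and 1.88% (40) in the same groups. For m1I the medians were 5.38% (8), 4.96% (7), 1.90% (10) and 2.15% (12), and for m1G they were 4.33% (15), 4.49% (17), 1.90% (12) and 1.61% (13). Over all members the medians were 2.67% (135 members) in Old-CMC, 2.96% (135) in Young-CMC, 1.49% (110) in Old-BEU and 1.79% (127) in Young-BEU.

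**Figure D1:**
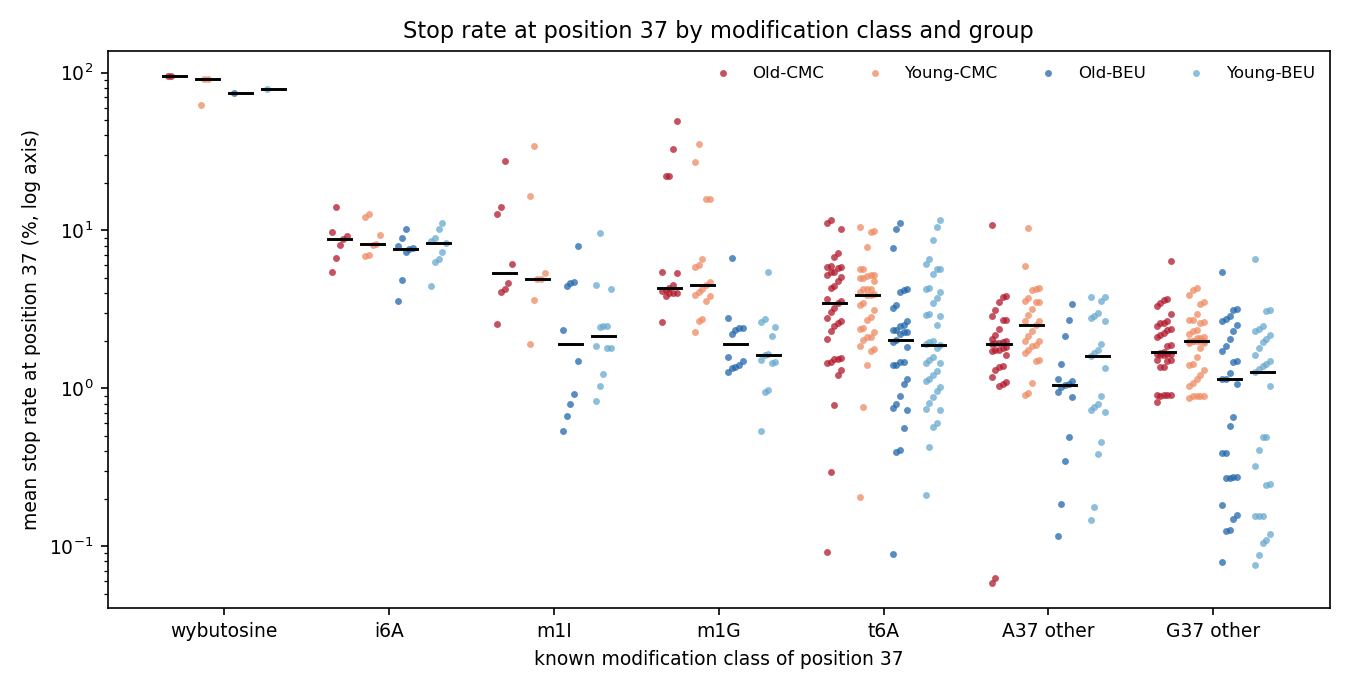
Mean stop rate at position 37 (log axis, percent) of each member below the coverage ceiling, by the known modification class on the horizontal axis and by group in colour; black bars are medians. The wybutosine class stands above all others, and the i6A class has medians between 7.68% and 8.80%, and the medians of the other 5 classes are higher with CMC than with BEU in both ages. These medians are over different members in each group. With 1 subtracted from stops and coverage, median changes in old and young cells were 2.85 and 2.26 points for m1I and 1.13 and 0.95 for m1G. They were 0.189 and 0.198 for t6A, 0.113 and 0.094 for A37 other, and -0.176 and -0.0568 for G37 other.

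The tRNAs with phenylalanine anticodon GAA had the highest stop rates of all members. Of these, tRNA-Phe-GAA-3-1 stayed below the ceiling. Its stop rate was 69.7, 56.2 and 79.3% in Old-CMC, 70.5, 62.2 and 54.5% in Young-CMC, 67.2, 77.1 and 78.8% in Old-BEU, and 78.1, 80.9 and 77.3% in Young-BEU. The rate was at least 54.5% in all 12 libraries, and the groups overlapped except Young-CMC and Young-BEU. One Old-CMC library had only 16 reads there, with an exact (Clopper-Pearson) 95% interval of 29.9 to 80.2%, so it was not tested over all libraries. In a fit of the 6 young libraries alone, added after the data were seen, it was lower with CMC, at 62.4 ± 7.96% against 78.8 ± 1.89% with BEU (SD, n = 3 each; edgeR quasi-likelihood test, adjusted p = 0.00354). At T39 of the same tRNA stops averaged 33.9% in Young-CMC and 2.20% in Young-BEU, the opposite direction. The part of T39 in the change at position 37 was not tested.

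The main phenylalanine tRNAs, tRNA-Phe-GAA-1-1 and tRNA-Phe-GAA-2-1, were chosen for naming after their values were seen, since both met the ceiling in 2 BEU libraries. At tRNA-Phe-GAA-1-1 stop rates were 95.1, 95.5 and 94.2% in Old-CMC and 91.9, 90.9 and 91.5% in Young-CMC. Below the ceiling the rates were 94.9% in both measured Old-BEU libraries, and 94.7 and 95.1% in Young-BEU. The 2 libraries at the ceiling gave 88.9 and 93.3%. With CMC every old library was above every young one. The difference was 3.50 points, which did not pass the test over the 6 CMC libraries (edgeR, adjusted p = 0.336). tRNA-Phe-GAA-2-1 stayed within 0.7 points of it in the 10 libraries below the ceiling, at 0.987 to 1.0 times its coverage, so the values of this pair are not independent.

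In the i6A class stop rates were set apart from both neighbouring bases. All 6 of its members that were below the ceiling throughout had a higher mean at position 37 than at positions 36 and 38 in all 4 groups. Among these, tRNA-Ser-AGA-1-1 and tRNA-Ser-TGA-2-1 had the same stop reads in all 12 libraries. In Old-BEU the medians of the 6 were 7.68% at position 37, 2.08% at position 36 and 1.19% at position 38. tRNA-Ser-CGA-1-1 gave 13.6, 16.3 and 12.3% in Old-CMC, 12.6, 10.7 and 14.9% in Young-CMC, 8.58, 9.33 and 12.8% in Old-BEU, and 12, 11.6 and 9.63% in Young-BEU. CMC and BEU libraries overlapped in both ages, and neither change passed the test (edgeR, adjusted p = 0.214 in old and 0.831 in young cells). tRNA-SeC-TCA-1-1, which reads UGA as selenocysteine, averaged 8.05 ± 1.74% in Old-CMC, 6.97 ± 0.953% in Young-CMC, 7.66 ± 1.72% in Old-BEU and 8.53 ± 0.458% in Young-BEU (SD, n = 3 each). Stops at these sites were present without CMC in all 6 BEU libraries.

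Outside the i6A class, 5 of the other 60 measured members peaked at position 37 in all 4 groups. They were tRNA-Leu-CAG-4-1 and 4 of the 6 tRNA-Trp-CCA members, whose means at position 37 lay between 1.06 and 4.19%. These 5 were singled out after their values were seen, and tRNA-Trp-CCA-3-1 and tRNA-Trp-CCA-4-1 stayed within 0.44 points of each other in all 12 libraries. Over all 66, position 37 exceeded both neighbours in 17 members in Old-CMC, 15 in Young-CMC, 23 in Old-BEU and 23 in Young-BEU.

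The t6A class showed another arrangement, with more stops one base further 5′. At 17 of its 18 measured members the mean stop rate at position 36 was above that at position 37 in all 4 groups. The class medians at position 37 were 3.46% in Old-CMC, 3.43% in Young-CMC, 2.02% in Old-BEU and 1.84% in Young-BEU. At position 36 they were 6.32, 6.78, 5.51 and 5.96% in the same order. Reverse transcriptase meets position 37 before position 36. In the A37 members outside the named classes the base at 36 was likewise higher, in 9 of 11 members in all 4 groups. Both counts are of entries, not of independent observations. Among the 11, the Val-AAC and Val-CAC members had the same position 37 stop reads in all 6 CMC libraries, as had the Gly-CCC members. Among the 18, so had 3 Arg-CCT members and the pairs Thr-AGT-4-1 and Thr-AGT-6-1, Thr-AGT-7-1 and Thr-CGT-3-1, and Thr-CGT-4-1 and Thr-TGT-1-1.

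**Figure D2:**
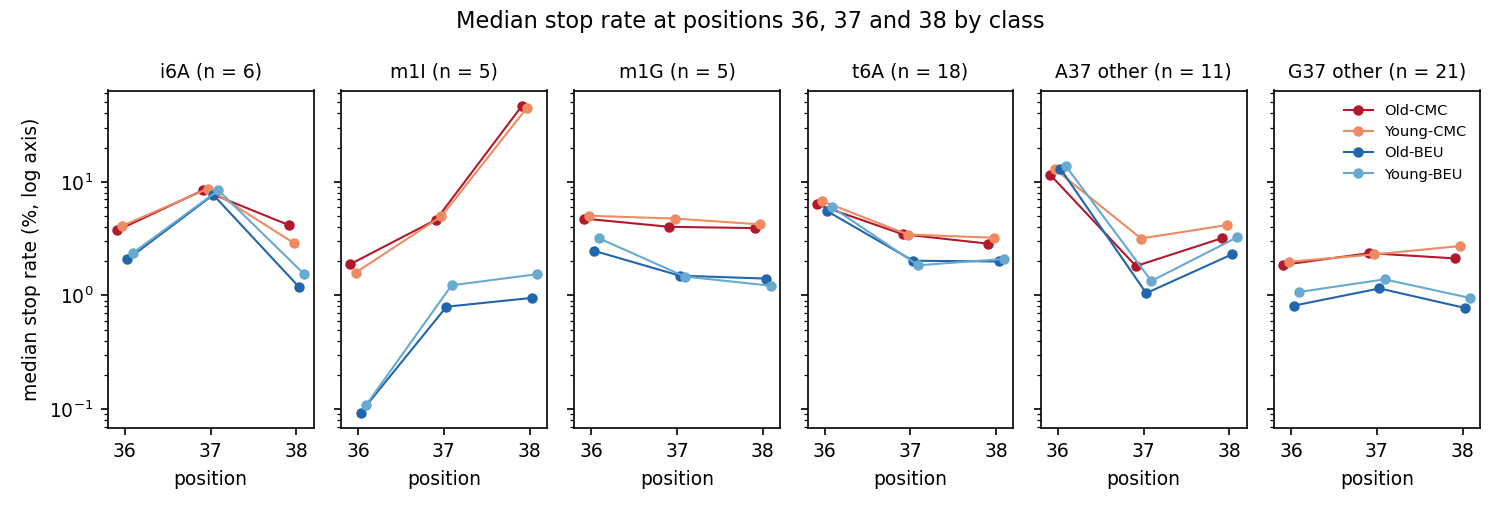
Median stop rate (log axis, percent) at positions 36, 37 and 38 in each group, over the members below the coverage ceiling in all 12 libraries, one panel per class with its number of members. The i6A panel peaks at position 37, the t6A panel falls from position 36, and in the m1I panel the CMC libraries climb to medians of 46.6% and 44.9% at position 38.

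Threonine tRNAs of one anticodon differed widely among themselves. tRNA-Thr-CGT-4-1 gave 12.4, 12.4 and 10.2% in Old-CMC, 9.42, 11.7 and 10.6% in Young-CMC, 12, 10.6 and 10.7% in Old-BEU, and 10.0, 12.3 and 12.5% in Young-BEU. All 4 groups overlapped. The other 3 measured Thr-CGT members had group means between 0.405 and 2.67%. Position 36 of tRNA-Thr-CGT-4-1 was higher still, at 17.2 ± 3.16% in Old-CMC, 19.7 ± 3.90% in Young-CMC, 15.8 ± 2.29% in Old-BEU and 15.1 ± 0.673% in Young-BEU (SD, n = 3 each). tRNA-Thr-TGT-1-1 followed it within 1.20 points at 1.03 to 1.12 times its coverage and had the same stop reads in every library, so this pair is not 2 independent observations. The highest and lowest Thr-AGT members, tRNA-Thr-AGT-5-1 and tRNA-Thr-AGT-7-1, were at 10.2 and 0.780% in Old-CMC, and 8.69 and 0.424% in Young-BEU, a 20.5-fold ratio in the last group. As tRNA-Thr-AGT-7-1 had the stop reads of tRNA-Thr-CGT-3-1 in all 6 CMC libraries, its level depends on how reads were divided between entries.

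The comparison of CMC with BEU asks whether a stop depends on CMC, as at a pseudouridine. A site was called when its adjusted p was under 0.05, its mean rate changed by at least 5 percentage points and all 3 same-numbered pairs changed in one direction. Few purines at position 37 passed. In old cells 2 of 39 members were called, both higher with CMC, where 18.1% of all 2752 sites tested were called higher and 1.67% lower. In young cells 4 of 39 were called, all higher, where 13.2% of all sites were called higher and 2.36% lower. All 3 pairs moved one way at 22 members in old and 22 in young cells, beside 62.6 and 50.3% of all sites. Among 1363 purines at other positions, 10.1% were called in either direction in old cells and 5.06% in young cells. The median change of the members was 1.23 points in old cells and 1.30 in young cells, beside 2.11 and 1.43 points over all sites. Both called in old cells, the leucine and an alanine tRNA, were also called in young cells. No stop value in the tables is under 1, so the authors may have added 1 to each, which lifts low rates most where coverage is low, as in CMC libraries. With 1 subtracted, the median change over members with enough reads in the comparison was 0.113 points in old cells and 0.144 in young cells, beside 1.12 and 1.06 as deposited.

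tRNA-Leu-CAG-4-1, a leucine tRNA with G at position 37, had the largest change in both ages. Its stop rate was 50.0, 51.8 and 46.5% in Old-CMC against 4.17, 8.46 and 7.42% in Old-BEU. In young cells it was 38.7, 28.4 and 38.5% in Young-CMC against 4.87, 7.09 and 4.36% in Young-BEU. Every CMC library was above every BEU library in both ages. The change was 42.8 ± 3.43 points in old cells (SD over 3 pairs; log2 odds ratio 3.85; edgeR, adjusted p = 6.82e-12) and 29.8 ± 7.29 points in young cells (3.20; adjusted p = 3.06e-10). Coverage there was between 104 and 545 reads in the CMC libraries and between 1011 and 3720 in the BEU libraries. The next base 3′, T38, also rose with CMC, to 16.8 ± 1.46% against 0.818 ± 0.276% with BEU in old cells and 22.2 ± 4.20% against 0.485 ± 0.0717% in young cells (SD, n = 3 each). In this tRNA the purine at 37 was thus above T38 with CMC.

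The other leucine tRNAs with anticodon CAG showed the same direction but met the ceiling in 2 BEU libraries each and were not in the test over all libraries; they were named after their values were seen. tRNA-Leu-CAG-3-1 averaged 32.6 ± 2.74% in Old-CMC (n = 3) against 5.97 ± 0.183% in Old-BEU (n = 2), and 27.3 ± 5.71% in Young-CMC (n = 3) against 5.89 ± 0.540% in Young-BEU (SD, n = 2). tRNA-Leu-CAG-1-1 averaged 22.3 ± 2.27% in Old-CMC (n = 3) against 3.11 ± 0.0652% in Old-BEU (n = 2), and 15.8 ± 3.69% in Young-CMC (n = 3) against 3.50 ± 0.264% in Young-BEU (SD, n = 2). tRNA-Leu-CAG-1-1 and tRNA-Leu-CAG-3-1 had the same stop reads in all 6 CMC libraries over different coverage, so their rates are not independent. tRNA-Leu-CAG-2-1 stayed within 0.1 points of tRNA-Leu-CAG-1-1 in the 10 libraries below the ceiling. In contrast to tRNA-Leu-CAG-4-1, T38 was above position 37 in both with CMC, at 50.5% in Old-CMC and 56.1% in Young-CMC for tRNA-Leu-CAG-3-1, and 41.1 and 42.5% for tRNA-Leu-CAG-1-1.

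**Figure D3:**
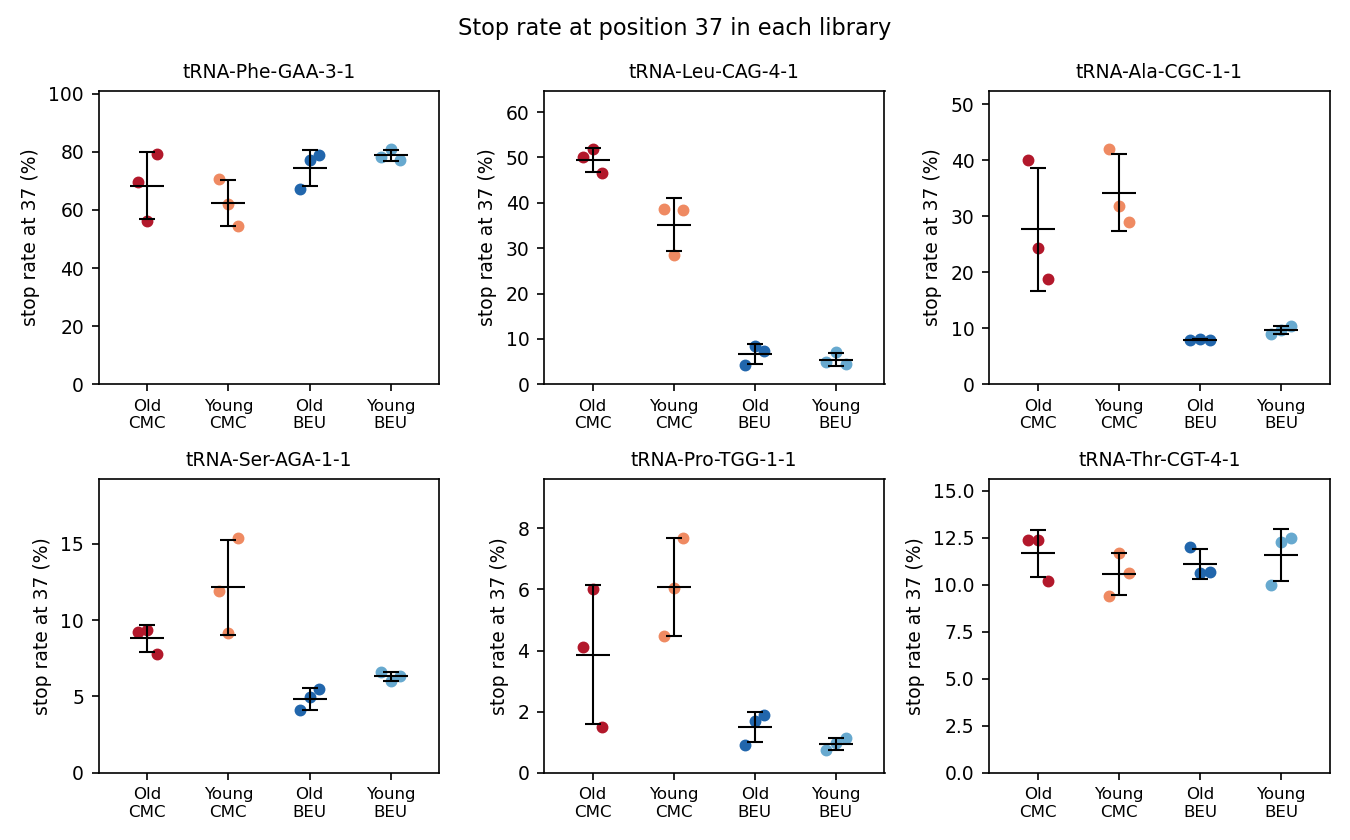
Stop rate at position 37 (percent) in every library of 6 tRNAs, with the mean and SD of each group of 3 libraries in black. tRNA-Leu-CAG-4-1 and tRNA-Ala-CGC-1-1 separate CMC from BEU, tRNA-Thr-CGT-4-1 does not, and tRNA-Phe-GAA-3-1 lies at 54.5% or more in all 12 libraries.

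Alanine tRNAs, whose A37 is known to become 1-methylinosine, came next. tRNA-Ala-CGC-1-1 gave 40, 24.3 and 18.8% in Old-CMC against 7.88, 8.02 and 7.99% in Old-BEU. In young cells it gave 42.0, 31.8 and 29.0% in Young-CMC against 8.92, 9.75 and 10.4% in Young-BEU. The CMC and BEU libraries did not overlap in either age, although the CMC libraries spread widely. Only 31 to 214 reads covered the base in the CMC libraries, and the library with 31 reads has an exact 95% interval of 14.2 to 48.0%. The change was 19.7 ± 11.1 points in old cells (log2 odds ratio 2.00; edgeR, adjusted p = 1.07e-05) and 24.6 ± 7.56 points in young cells (2.26; adjusted p = 1.21e-07; SD over 3 pairs each). The stop numbers of this tRNA were also those of tRNA-Ala-TGC-2-1, named after its values were seen, in all 6 CMC libraries and 4 of the BEU libraries. Over the larger coverage of that entry, 69 to 402 reads with CMC, the same stops made a mean rate of 14.2% in Old-CMC and 16.5% in Young-CMC, so the level depends on how reads were divided between the entries. T38 of tRNA-Ala-CGC-1-1 stood at 64.8% in Old-CMC against 2.26% in Old-BEU, and at 50.4% in Young-CMC against 2.27% in Young-BEU.

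The other 3 tested alanine tRNAs had an adjusted p under 0.05 in both ages but changed by less than 5 points, so they were not called. Of these, tRNA-Ala-TGC-4-1 and tRNA-Ala-CGC-2-1 were below 2% in every BEU library. They entered the test by their CMC rates, so their p-values are not independent of the 2% minimum. tRNA-Ala-TGC-4-1 averaged 4.65% in Old-CMC against 0.672% in Old-BEU, and 4.96% in Young-CMC against 1.23% in Young-BEU. tRNA-Ala-CGC-2-1 averaged 4.05% in Old-CMC against 0.539% in Old-BEU, and 5.37% in Young-CMC against 0.836% in Young-BEU. tRNA-Ala-AGC-6-1 averaged 6.11% in Old-CMC against 2.33% in Old-BEU, and 4.93% in Young-CMC against 2.48% in Young-BEU. All 12 alanine members had C at position 36 and T at position 38.

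Proline and serine tRNAs gave the remaining calls, in young cells. tRNA-Pro-TGG-1-1 gave 4.49, 6.04 and 7.69% in Young-CMC against 0.752, 0.965 and 1.14% in Young-BEU, with no overlap. The change was 5.13 ± 1.41 points (SD over 3 pairs; log2 odds ratio 2.67; edgeR, adjusted p = 1.13e-05). The highest of these Young-CMC values came from 39 reads. This tRNA was below 2% in every BEU library and entered the test by its CMC rates, so its p-values are not independent of the 2% minimum. In old cells the same site gave 4.11, 6.00 and 1.49% in Old-CMC against 0.924, 1.68 and 1.88% in Old-BEU, which overlap, and the change of 2.37 points was not called (adjusted p = 0.0724). With 1 subtracted the young change was 3.94 points, below the least change called, and without young replicate 3 it was 4.41 points. At T38 stops were 37.7% in Old-CMC against 0.989% in Old-BEU, and 32.5% in Young-CMC against 1.22% in Young-BEU.

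tRNA-Ser-AGA-1-1, of the i6A class, was the one called member without T38. It gave 11.9, 9.16 and 15.4% in Young-CMC against 6.59, 6.02 and 6.34% in Young-BEU, a change of 5.82 ± 2.99 points (SD over 3 pairs; log2 odds ratio 0.80; edgeR, adjusted p = 0.0447). In old cells it gave 9.23, 9.38 and 7.79% in Old-CMC against 4.09, 4.97 and 5.50% in Old-BEU, and the change of 3.95 points was not called (adjusted p = 0.0521). The groups did not overlap in either age. The young call is weak: it was lost with 1 subtracted (adjusted p = 0.110), with DESeq2 (0.173) and without any one young replicate (0.106 to 0.155). It was also lost with no filter on the mean stop rate and with the ceiling disregarded. The same stop reads over the larger coverage of tRNA-Ser-TGA-2-1 made a change of 2.45 points in young cells, which was not called (adjusted p = 0.178). T39 of this tRNA stood at 38.3% in Old-CMC against 1.10% in Old-BEU, and at 40.9% in Young-CMC against 1.51% in Young-BEU.

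**Figure D4:**
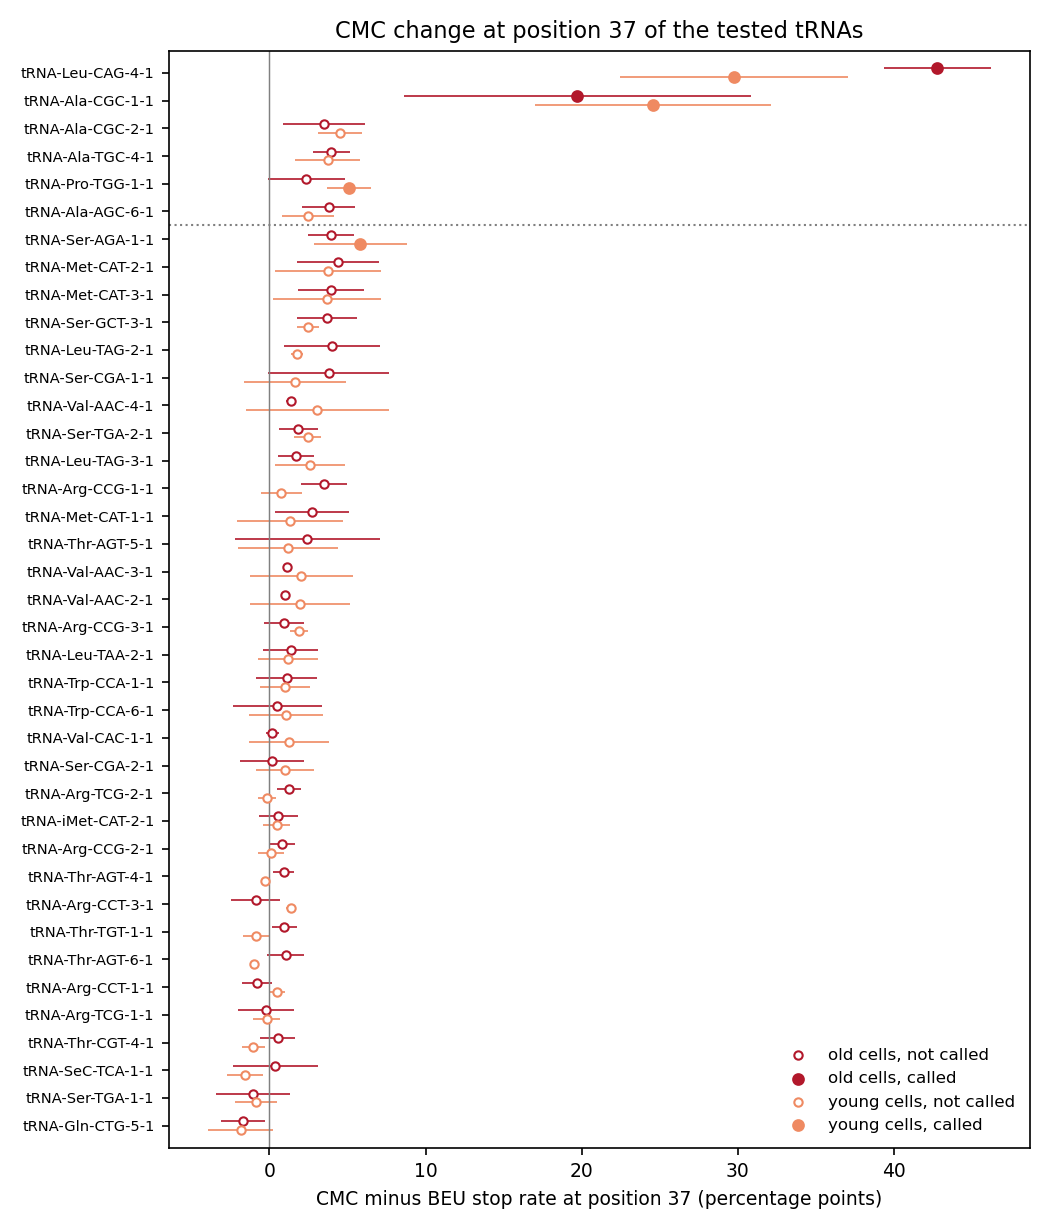
Difference in mean stop rate at position 37, CMC minus BEU, in percentage points for the 39 tested tRNAs, with the SD over 3 same-numbered pairs; filled points were called. The 6 tRNAs above the dotted line have T at position 38 and the 33 below it do not; tRNA-Leu-CAG-4-1 and tRNA-Ala-CGC-1-1 lie far to the right in both ages.

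Calls lay mostly where the 3′ neighbour is T. Of the 6 tested members with T38, 2 were called in old cells and 3 in young cells, with median changes of 3.88 and 4.83 points. Over all sites of any base, 18.1% were called higher in old cells and 13.2% in young cells. All 6 members with T38 were of the m1I or m1G class, so base 38 and class could not be told apart for them. The minimum mean rate of 2% for testing counts the CMC libraries, so a member low with BEU could enter by its CMC rates. The measured T38 member tRNA-Ala-AGC-5-1, at a mean of 1.57%, was left out. It changed by 1.74 points in old cells and 0.86 in young cells. Of the 33 with A, C or G at position 38, 0 were called in old cells and 1 in young cells, with median changes of 1.03 and 1.17 points. With 1 subtracted these medians were 0.319 and 0.389 points, and those of the 6 with T38 were 2.85 and 3.54 points. At position 38 itself, the median change of the 6 with T38 was 41.2 points in old cells and 37.4 in young cells, beside 0.960 and 1.20 points in the 33. The members with T38 thus had the larger median change at both positions, and the part of T38 in the change at position 37 was not tested. The sizes at the 2 bases did not follow one order: tRNA-Ala-AGC-6-1 rose by 69.9 points at T38 and by 3.79 at A37 in old cells, while tRNA-Leu-CAG-4-1 rose by 15.9 points at T38 and by 42.8 at G37.

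**Figure D5:**
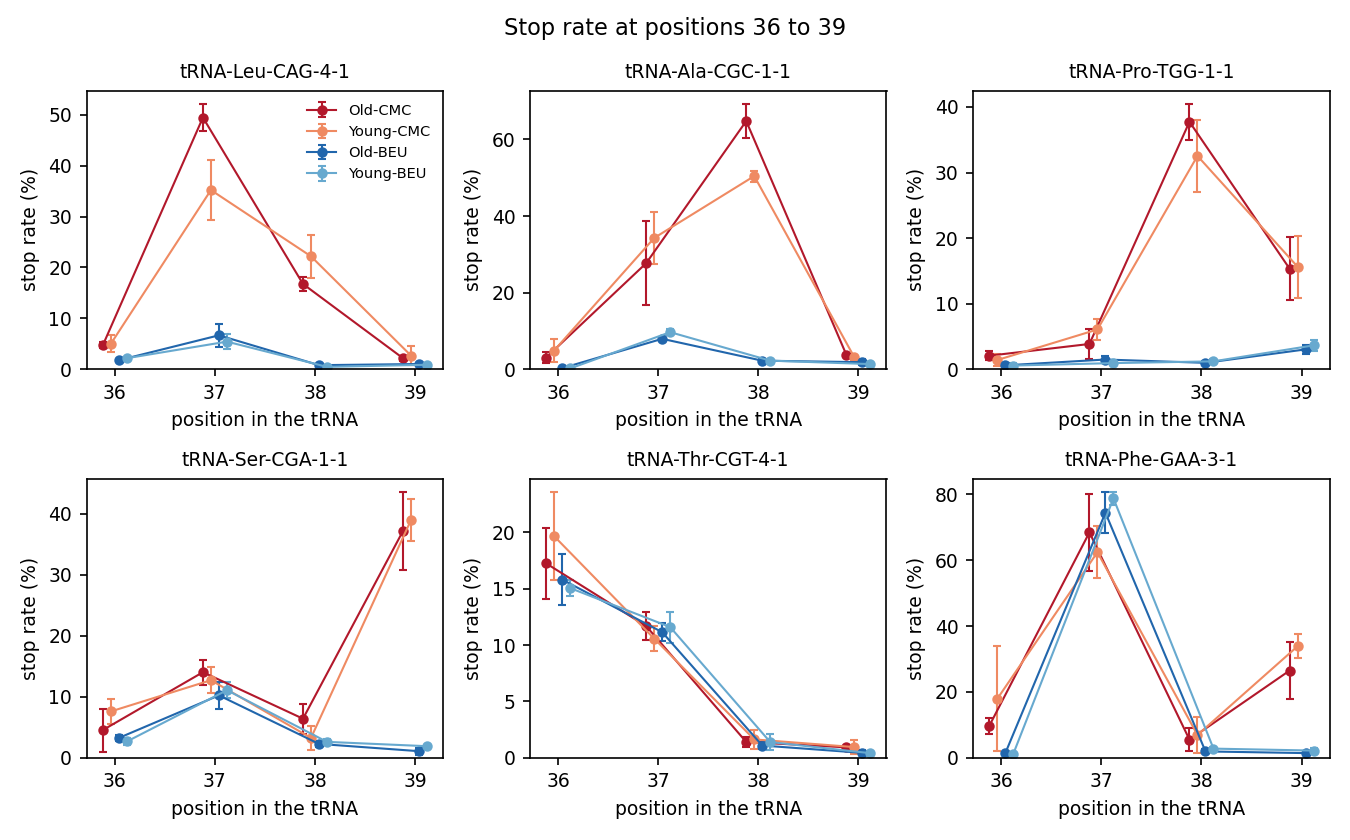
Mean stop rate (percent) with SD over 3 libraries at positions 36 to 39 of 6 tRNAs, by group. With CMC, tRNA-Leu-CAG-4-1 peaks at position 37, tRNA-Ala-CGC-1-1 and tRNA-Pro-TGG-1-1 at position 38 and tRNA-Ser-CGA-1-1 at position 39, while tRNA-Thr-CGT-4-1 is highest at position 36 in all 4 groups.

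No other member was called in the fit of all 12 libraries. Fits of the 6 libraries of one age alone, added after the data were seen, took in members that the coverage minimum, the ceiling or the minimum mean rate had left out of it. In old cells 3 of 35 were called there (19.1% of all sites) and 21 had all pairs one way (61.9%), and in young cells 5 of 56 (16.2%) and 32 (50.7%). The added calls were alanine tRNAs and tRNA-Phe-GAA-3-1. tRNA-Ser-AGA-1-1 was not called in the fit of the young libraries (edgeR, adjusted p = 0.0636). tRNA-Ala-AGC-2-1, left out before because one young library had 19 reads, was 11.2 ± 9.60 points higher with CMC in old cells (SD over 3 pairs; edgeR, adjusted p = 0.000155). Without old replicate 2, where 7 of 30 reads stopped, its mean change was 5.75 points. tRNA-Ala-TGC-2-1 was called in young cells, at 16.5% in Young-CMC against 4.53% in Young-BEU (adjusted p = 1.48e-07), on the CMC stop reads it has in common with tRNA-Ala-CGC-1-1, so it adds no independent call.

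Elongator methionine tRNAs, of the t6A class, changed by less than 5 points. tRNA-Met-CAT-2-1 averaged 5.84 ± 3.01% in Old-CMC against 1.46 ± 0.409% in Old-BEU, and 5.03 ± 2.96% in Young-CMC against 1.28 ± 0.436% in Young-BEU (SD, n = 3 each). Its adjusted p was 0.00172 in old and 0.0435 in young cells, and one of its CMC values rests on 2 stops in 35 reads. It was below 2% in every BEU library and entered the test by its CMC rates. tRNA-Met-CAT-3-1 stayed within 0.663 points of it, while tRNA-Met-CAT-1-1, the best covered, changed by 2.71 points in old cells (adjusted p = 0.0125) and 1.30 in young cells (0.320). Among the 39 members of the 12-library fit the lowest change in both ages was at tRNA-Gln-CTG-5-1, a glutamine tRNA. It averaged 1.74 ± 1.18% in Old-CMC against 3.43 ± 0.392% in Old-BEU, and 1.75 ± 1.43% in Young-CMC against 3.59 ± 0.665% in Young-BEU (SD, n = 3 each). It was not called either.

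The comparison of old with young cells used the BEU libraries for stops that need no CMC. No member was called in either direction with BEU (0 of 39, where 0.618% of all sites were called, all of them lower in old cells). By edgeR, 5 members had an unadjusted p under 0.05, beside 15.0% of all sites, and limma and DESeq2 also called 0. In 27 of 39 members the old mean was the lower, the median difference was -0.29 points (all sites -0.17 points), and groups did not overlap in 7 members, beside 21.3% of all sites. The lowest adjusted p, 0.0529, was at tRNA-Ala-TGC-4-1, with 0.631, 0.573 and 0.811% in Old-BEU against 1.54, 0.966 and 1.18% in Young-BEU. The largest difference was at tRNA-Ala-CGC-1-1, 1.73 points lower in old cells at 7.96 ± 0.0718% against 9.70 ± 0.747% in young cells (SD, n = 3 each; adjusted p = 0.491). tRNA-Ser-AGA-1-1 was at 4.85 ± 0.716% in Old-BEU and 6.31 ± 0.289% in Young-BEU (SD, n = 3 each; adjusted p = 0.269). These did not pass the test. In the fit of the 6 BEU libraries alone 0 of 44 members were called (0.46% of all sites; 5 at an unadjusted p under 0.05), and 6 did not overlap, beside 18.5% of all sites.

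With CMC the largest age difference was at tRNA-Leu-CAG-4-1, which averaged 49.4 ± 2.72% in Old-CMC and 35.2 ± 5.86% in Young-CMC (SD, n = 3 each). The old libraries were all above the young ones, by 14.2 points in the mean, but the difference did not pass adjustment over all sites (edgeR, adjusted p = 0.410). No member was called (0 of 39, with 0.0% of all sites called and 1 member at an unadjusted p under 0.05, beside 7.41% of all sites; limma and DESeq2 also called 0). It was also the 1 member without overlap, beside 12% of all sites. tRNA-Ala-CGC-1-1 lay the other way, 6.58 points lower in Old-CMC than in Young-CMC with overlapping libraries (adjusted p = 0.726). T38 of tRNA-Leu-CAG-4-1 was lower in Old-CMC, at 16.8%, than in Young-CMC, at 22.2%, so the age order at 37 and 38 differed in this tRNA.

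A fit of the 6 CMC libraries alone, added after the data were seen, brought in members that met the ceiling only with BEU. Of 90 members tested, 0 were called (0.0% of all sites), 7 had an unadjusted p under 0.05, and 7 did not overlap, all higher in old cells (11.4% of all sites did not overlap). Among these 7 were tRNA-Leu-CAG-4-1 (adjusted p = 0.107), tRNA-Leu-CAG-1-1 and tRNA-Leu-CAG-2-1 (0.235 each), and the phenylalanine pair described above. tRNA-Leu-CAG-1-1 gave 21.4, 24.9 and 20.6% in Old-CMC and 19.4, 12 and 15.9% in Young-CMC. As tRNA-Leu-CAG-2-1 carries nearly the same values, these count as one observation.

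The age difference of the CMC change, taken as the change in old pairs minus that in young pairs, was not called at any member (0 of 39; 0.0% of all sites; by edgeR 0 members at an unadjusted p under 0.05, beside 9.67% of all sites, and limma and DESeq2 also called 0). At 9 of 39 members the pair changes of old and young cells did not overlap, 7 of them higher in old cells, beside 11.8% of all sites. It was largest at tRNA-Leu-CAG-4-1, at 13.0 points (adjusted p = 0.566), and lowest at tRNA-Ala-CGC-1-1, at -4.85 points (adjusted p = 0.880). The median over members was 0.137 points and over all sites 0.567 points. With 3 libraries a group, differences of this size at the coverage given above could not be told from the spread between libraries.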

How the data were processed

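The authors deposited 6 tables, 1 per age and replicate number, with a BEU and a CMC library side by side. Per the file headers they hold, for each base of each tRNA entry, coverage as a count of reads, the number of stop reads (another whole number of reads) and the stop rate, a percent. Bowtie2 2.3.5, Bowtie and mm10 are named in the submitters' processing notes without roles, and the sources used here do not give the rule for stops. No genome was used; positions are counted in the tRNA, and each stop was read at the base where the tables put it. Near-identical tRNAs may share reads; how reads were assigned to entries is unknown here.

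Stop and read-through counts went into the quasi-likelihood test of edgeR 4.0.16 (R 4.3.3), modelling each library's coverage and the log odds of a stop in each of 4 groups, with equal library sizes and without a dispersion trend. Benjamini-Hochberg adjustment ran over all 2752 sites of any base with coverage of at least 20 in all 12 libraries, below the ceiling, and with a mean stop rate of at least 2%. A call needed an adjusted p under 0.05, a change of at least 5 points, and the same direction in all 3 same-numbered pairs (CMC against BEU) or no overlap (age). SDs are over libraries or pairs. Intervals are exact binomial and cover counting error only, since reads without molecular identifiers are not independent molecules. Median coverage at the tested members was 50.0 to 179 reads in Old-CMC, 54.0 to 393 in Young-CMC, 717 to 3557 in Old-BEU and 945 to 2553 in Young-BEU libraries. Alternatives were limma 3.58.1 on log odds, DESeq2 1.42.0, other coverage, rate and change minimums, 1 subtracted from stops and coverage, the ceiling disregarded, a replicate block and leaving out each pair. A trial of the test on simulated data covered old against young with CMC only, so it does not bear on the calls of CMC against BEU.

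The members and classes were chosen with earlier results of these data known. Named tRNAs are the best-covered of each anticodon, the 8 highest stop rates below the ceiling, and per comparison and direction the 8 largest called changes (at most 2 per anticodon) or, with fewer than 3 called, the 3 largest changes. Other tRNAs were named after their values were seen.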

Additional observations from a re-analysis of the deposited data

Results flagged for a closer look

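At 2 threonine members every old pair of libraries changed one way with CMC and every young pair the other way. At tRNA-Thr-AGT-4-1 the CMC change was 0.905 points in old pairs and -0.267 points in young pairs, a difference of 1.17 points. At tRNA-Thr-TGT-1-1 it was 0.961 points in old pairs and -0.833 points in young pairs, a difference of 1.79 points. The pairs are by number alone, the pattern of signs is not itself a test, and the test of the age difference called neither (edgeR, adjusted p = 0.566 and 0.994). tRNA-Thr-AGT-6-1 has the stop reads of tRNA-Thr-AGT-4-1 in all 6 CMC libraries, and tRNA-Thr-CGT-4-1 those of tRNA-Thr-TGT-1-1 in all 12 libraries. In neither of these entries did all old pairs change one way. The share of all sites with such signs was not counted.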

How the results depend on the processing

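With 4 members called in young cells and 2 in old cells, the count in young cells became 2 with 1 subtracted from stops and coverage, 2 with changes of at least 10 points, 9 with changes of at least 2 points, 8 with coverage of at least 10 and 1 with coverage of at least 50. In old cells it became 7 with the ceiling disregarded, 10 with changes of at least 2 points, 5 with coverage of at least 10 and 1 with coverage of at least 50. Leaving out a pair of libraries gave 3 to 6 calls in young cells and 2 to 6 in old cells, the highest without young replicate 2 and without old replicate 1. The cause of these moves was not tested, except that the filters and thresholds change which sites can be called. The share of all sites called in each setting is not given here, so these counts are not results about position 37. The other 89 counts stayed within 1.5 times, and no member was called by age, or for the age difference of the CMC change, under any alternative run. Of the changes of called members, 101 kept their side of the threshold, 14 became weaker and 0 reversed; tRNA-Leu-CAG-4-1 was called in each setting and tRNA-Ala-CGC-1-1 in each but coverage of at least 50, where it was not tested. Of the groups' stop rates at named members, 45 moved by more than 1 SD, each with 1 subtracted, and 727 did not. With the replicate block 3 members were called in young and 2 in old cells, tRNA-Ser-AGA-1-1 being lost. CMC and BEU libraries of one number and age deviated together by r between -0.0346 and 0.0651 across 2752 sites, so they are no evidence of pairing and the fits have no block; the call rule, the SDs of changes and the signs by pair set same-numbered libraries against each other by number alone. Low coverage with CMC limits small changes most, since 1 stop read in 50 already makes a rate of 2%.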

Other observations

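Lysine tRNA with anticodon TTT, whose A37 is known to carry the t6A derivative made by CDKAL1 (ms2t6A), was left out above because its run of T matched the anticodon at several places. At its A just 3′ of that run, base 37 of the entry, most of the reads covering it were recorded as stops, with and without CMC. tRNA-Lys-TTT-1-1 gave 91.9, 92.6 and 90.7% in Old-CMC, 94.8, 90.7 and 88.5% in Young-CMC, 84.0, 89.7 and 91.5% in Old-BEU, and 93.1, 93.1 and 92.5% in Young-BEU. The means were 91.7 ± 0.956% in Old-CMC, 91.4 ± 3.16% in Young-CMC, 88.4 ± 3.94% in Old-BEU and 92.9 ± 0.376% in Young-BEU (SD, n = 3 each). tRNA-Lys-TTT-2-1 averaged 92.2, 91.8, 89.9 and 93.6% in the same groups. Its coverage was nearly the same, such as 158 reads against 160 in the first Old-CMC library, so the values of these entries are not independent. Neither tRNA met the ceiling, with coverage between 94 and 4084 reads. All 3 Old-BEU libraries lay below all 3 Young-BEU libraries, beside 21.3% of the 2752 sites tested whose BEU groups did not overlap.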
